A study of Danio rerio with 2 samples.

Results

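The Stat genes encode the transcription factors at the end of the Jak/Stat pathway. Members were the regions of open chromatin whose list of assigned genes named a member of a list of 8 Stat genes. All 8 genes were found, with 18 of the 41473 regions in the table. Counts and medians are over all of them, and 6 genes with 16 regions are described one by one, which are *stat2*, *stat3*, *stat4*, *stat5a*, *stat5b* and *stat6*. Open chromatin was measured by ATAC-seq, an assay that sequences the DNA fragments a transposase can reach. Hearts came from zebrafish embryos aged 96 h after fertilization, with 1 library for *hos* (heart of stone) mutants and 1 for siblings, whose genotype label is wt. The line of both groups carried Tg(*myl7*:GFP), a cardiomyocyte reporter, and the protocol names 60 pooled hearts. The series title names Smarce1, which belongs to the SWI/SNF chromatin remodeler, and Jak/Stat3 signaling, so the question was whether accessibility at the Stat genes differed between mutant and sibling hearts. The lesion in *hos* and whether siblings included heterozygotes are not given in the labels. Since each genotype has 1 library, differences are between these libraries, without replicates and without a p-value. Each 95% interval is computed on fragment counts estimated from the signal. It covers counting error only, and does so only if the deposited signals were not rescaled.

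Stat proteins wait in the cytoplasm until a Janus kinase at a cytokine receptor phosphorylates them on a tyrosine. They then pair through their SH2 domains, enter the nucleus and bind DNA. In mammals Stat2 acts downstream of interferons, Stat3 downstream of the interleukin-6 family, Stat4 of interleukin-12, Stat5 of growth hormone, prolactin and erythropoietin, and Stat6 of interleukin-4 and interleukin-13. In zebrafish, Jak1/Stat3 signaling is known for its part in cardiomyocyte proliferation during heart regeneration. Accessibility at a gene start is not a measure of its transcript or of phosphorylated protein.

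The mean signal of a region, a pileup of sequenced fragments, is called its average signal here. Ratios are log2((mutant average signal + 1)/(sibling average signal + 1)) with no rescaling of the libraries, and folds are of the average signals themselves. The regions held an estimated 4748194 tags in the mutant library and 4091429 in the sibling library, a ratio of 1.16, and the median log2 ratio over all regions was 0.15. The sources used here do not state how the libraries were scaled, so a shared offset cannot be assigned to the hearts or to depth. The *smarce1* promoter had a signal of 106 in the mutant library and 87.3 in the sibling library, a log2 ratio of 0.28, which does not check the genotype.

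Of the 18 Stat regions, 13 were higher and 5 lower in the mutant library. The background is a higher mutant signal in 62% of all regions. The split depends on scaling, with 12 above and 6 below 0 when the median of all regions was set to 0, and 9 above and 9 below 0 after lowess centring, which removes the trend of the ratio with mean signal. The median log2 ratio of the 18 regions was 0.25, against 0.15 over all regions. A single region was at least 2-fold higher (background 3.32%) and a single region at least 2-fold lower (background 4.83%), 2 in all (background 8.16% in either direction), and both are assigned to *stat2* and lie at or inside other genes. A region was called in a library where the MACS2 peak caller placed an interval there. Of the 18 regions 10 were called in both libraries (background 63.7%), 4 in the mutant library only (background 17.5%) and 4 in the sibling library only (background 18.9%). Promoters of 8 cardiomyocyte markers, of which 5 were called in both libraries, had a median log2 ratio of 1.14, or 1.001 after lowess centring. Their part in the Stat ratios was not tested. A different number of cells of a type and a different amount of open chromatin per cell cannot be told apart in whole hearts.

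**Figure D1:**
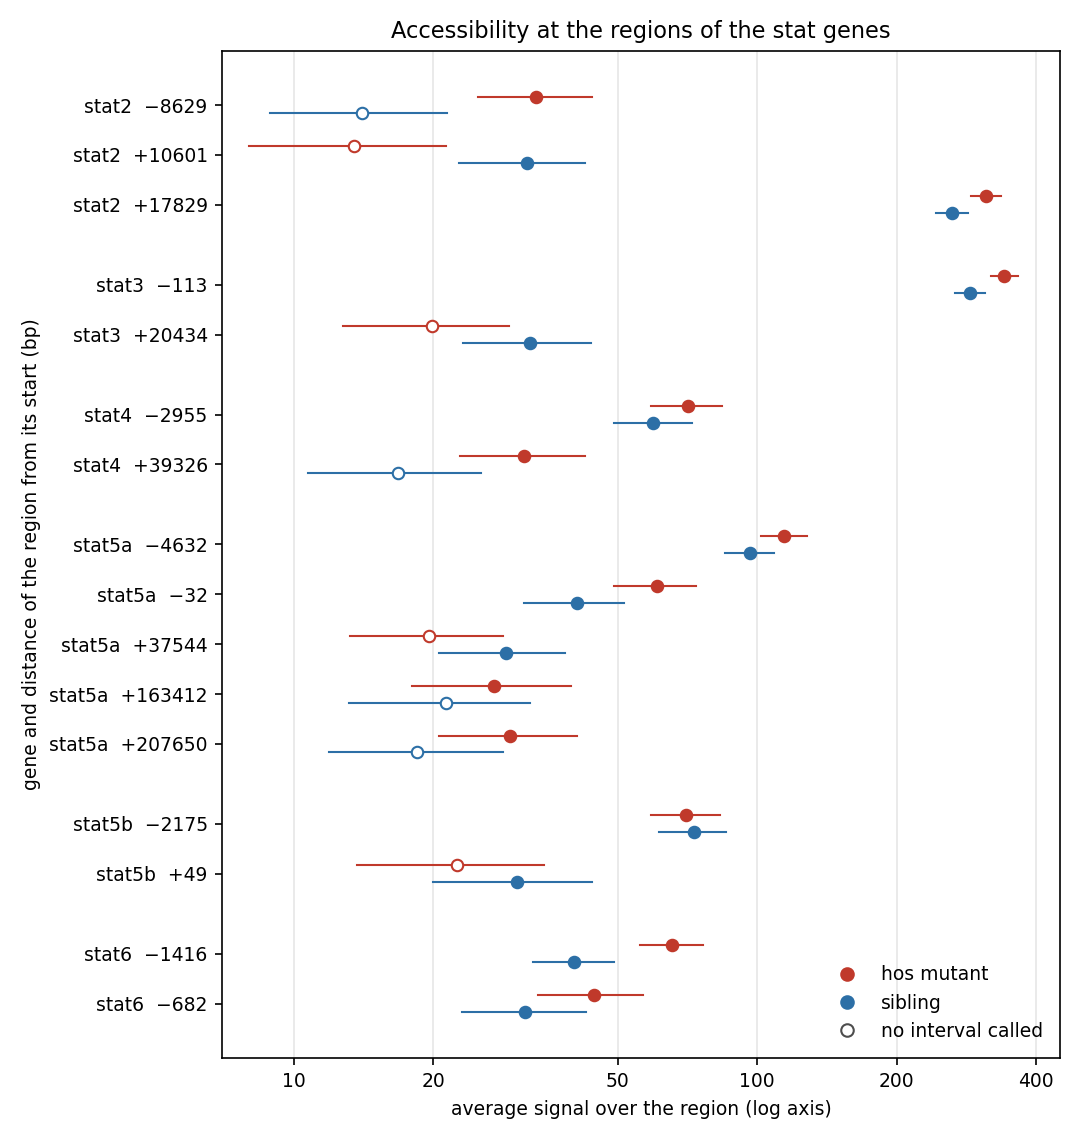
Average signal (log axis) of each of 16 Stat regions in the *hos* mutant library (red, upper point) and the sibling library (blue, lower point), labelled by gene and by distance from its start in bp. Lines are exact Poisson 95% intervals on estimated tags, and open points mark a library in which the region was not called. The *stat3* region at -113 bp and the *stat2* region at +17829 bp have the highest signals in both libraries.

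The strongest Stat region lay at the start of *stat3* (gene 30767), the member named in the series title. It spans 17030271 to 17030833 on chromosome 3 (danRer11, as all coordinates here), is centred 113 bp upstream of the gene start and overlaps a CpG island. Its average signal was 342 in the mutant library and 288 in the sibling library, 1.18-fold (1.07 to 1.31) higher in the mutant, or 0.24 as a log2 ratio. The promoter median over 14591 genes was 0.25. Its peak signal, the highest pileup in the region, was 613 in the mutant library and 537 in the sibling library, which gives a lower log2 ratio of 0.19. Only 78 promoters of other genes had a higher average signal in the mutant library and 70 in the sibling library. The *stat3* start was thus among the most open promoters in either library, and its ratio stood at the promoter median. The direction depends on scaling: the log2 ratio was 0.09 with the median of all regions set to 0 and -0.06 with lowess centring.

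The other *stat3* region lies 20434 bp inside the gene, which is 79.3 kb long. There the average signal was 19.9 in the mutant library and 32.3 in the sibling library, and the region was called in the sibling library only. The sibling signal was 1.63-fold the mutant signal, with an interval of 0.974 to 2.81 that includes 1, on an estimated 25.2 tags in the mutant library and 41 in the sibling library. No exon or intron was assigned to regions inside genes, since the files give gene ends only.

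No region lay within 1000 bp of the annotated start of *stat2* (gene 565200), which acts in the interferon response. Its main region was instead 17829 bp inside the gene on chromosome 6 (39160273 to 39160779). The average signal there was 312 in the mutant library and 263 in the sibling library, a fold of 1.18 (1.06 to 1.32) with log2 ratio 0.24, almost the ratio of the *stat3* promoter. Of the 17140 regions inside genes and away from any start, only 29 had a higher signal in the mutant library and 24 in the sibling library. The region thus has a signal in the range of strong promoters at a place where the files annotate no gene start.

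Both other *stat2* regions were weak and went in opposite directions. One is 10601 bp inside *stat2* (39167605 to 39167904) and 39 bp upstream of *apof*, an apolipoprotein gene. Its average signal was 13.5 in the mutant library and 31.8 in the sibling library, a sibling signal 2.36-fold (1.31 to 4.31) that of the mutant and a log2 ratio of -1.18. As the region at the *apof* start it counts among promoter regions, of which 99.5% had a higher ratio and 0.857% were at least 2-fold lower. Most promoter regions (83.8%) were called in both libraries, unlike this weak region. Among regions of all classes in the same bin of signal, the lowest of equal bins, 75.9% had a higher ratio. The median log2 ratio of that bin was -0.75. Only 0.386% of its regions were called in both libraries, and a call in a single library largely sets the direction. The bin therefore cannot show whether the low ratio is unusual. After lowess centring the log2 ratio of the *apof* start region was -0.66. The other is 8629 bp upstream of *stat2* (39186810 to 39187158) and inside *tac3b*, a tachykinin gene, with 33.4 in the mutant library and 14 in the sibling library. That is a fold of 2.38 (1.41 to 4.09) with log2 ratio 1.20, above which 1.89% of regions inside genes lay, and 3.58% of them were at least 2-fold higher. Each was called only in the library where it was higher. Over all regions called in a single library, 21.5% were at least 2-fold different, against 0.511% of regions called in both.

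**Figure D2:**
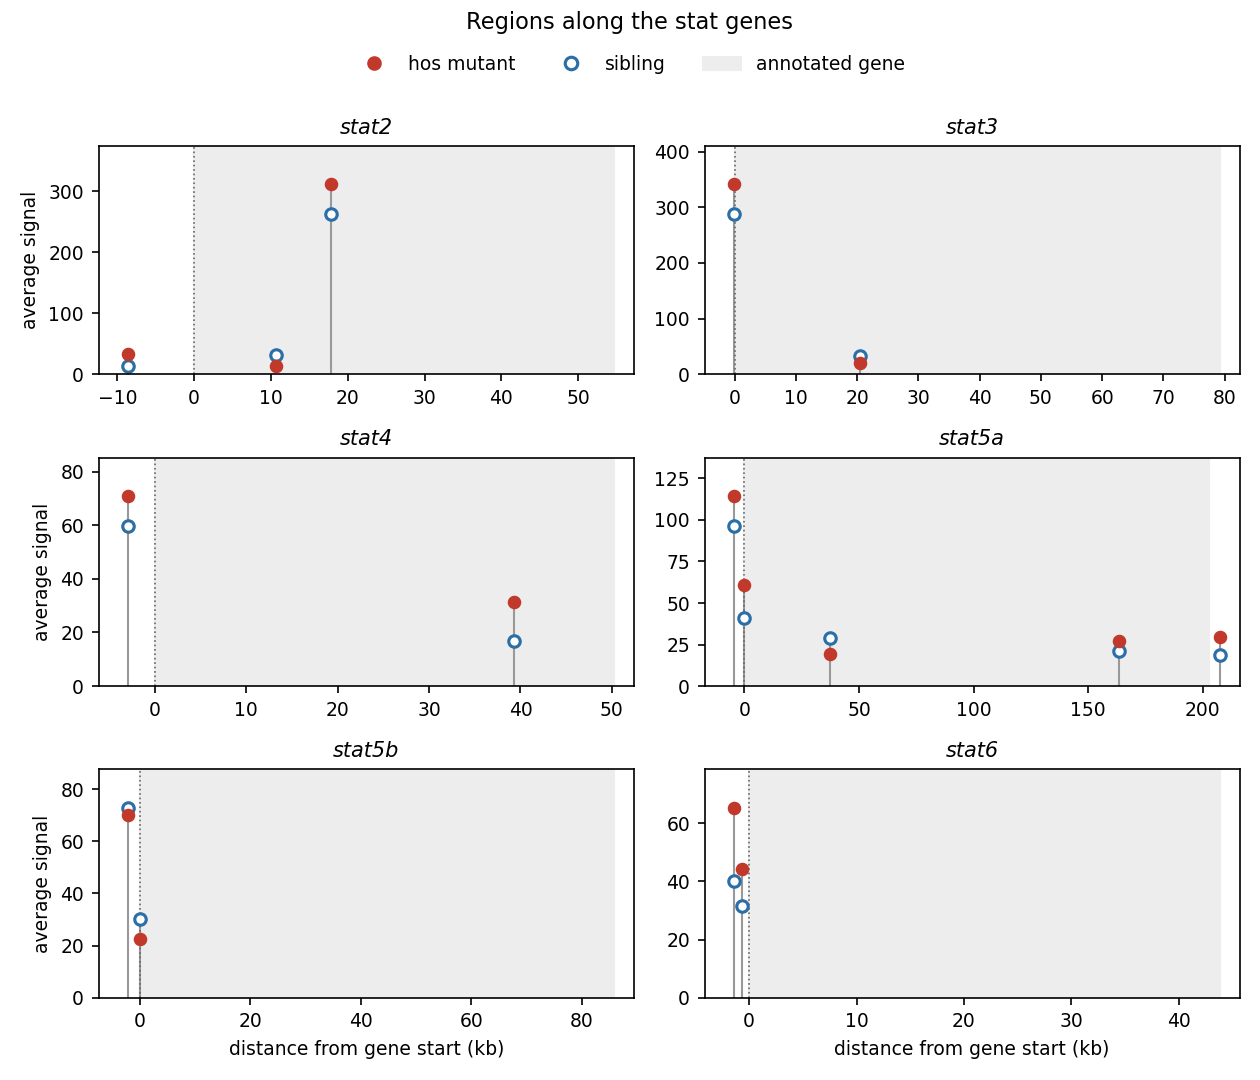
Average signal (vertical axis) of the regions of 6 Stat genes by distance from the gene start in kb, in the *hos* mutant library (filled red) and the sibling library (open blue), with the annotated gene in grey. Scales differ between panels, and *stat2* has its main region 17.8 kb inside the gene while the other genes shown have theirs at or upstream of the start.

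The *stat4* gene (gene 368519), whose mammalian counterpart acts in lymphocytes, had no region within 1000 bp of its start either. The nearest lay 2955 bp upstream (chromosome 9, 41153607 to 41154015) and 71 bp inside the neighbouring gene *wdr75*. Its average signal was 71.0 in the mutant library and 59.7 in the sibling library, a fold of 1.19 (0.91 to 1.54) with log2 ratio 0.25. A weaker region 39326 bp inside *stat4* had 31.3 in the mutant library and 16.8 in the sibling library, and was called in the mutant library only. Its fold was 1.87 (1.1 to 3.25) and its log2 ratio 0.86, above which 5.83% of regions inside genes lay. After lowess centring this region passed the 2-fold limit at 1.02. The share of all regions past the limit on that scale is not given here.

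With 5 regions over 202.6 kb, *stat5a* (gene 369197) had the most of the Stat genes, where 12.4% of all genes had 5 or more. The region at its start, centred 32 bp upstream on chromosome 3 (17129065 to 17129424), had an average signal of 60.6 in the mutant library and 40.8 in the sibling library. The fold was 1.49 (1.08 to 2.08) and the log2 ratio of 0.56 was the highest of the Stat promoters, with 16.2% of promoter regions above it. The stronger region of this gene lay 4632 bp upstream, on the second CpG island of the set, with 115 in the mutant library and 96.4 in the sibling library. Its fold was 1.19 (1.004 to 1.40) and its log2 ratio 0.25. CpG islands overlapped 2 of the 18 Stat regions (background 10.6% of all regions and 22.9% of promoter regions).

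The 3 remaining *stat5a* regions were weak. At 37544 bp inside the gene the average signal was 19.5 in the mutant library and 28.7 in the sibling library, and the region was called in the sibling library only. At 163412 bp inside the gene it was 27.0 in the mutant library and 21.3 in the sibling library. Beyond the gene end, 207650 bp from the start, it was 29.3 in the mutant library and 18.4 in the sibling library. Both of these were called in the mutant library only. The counting intervals of all 3 folds include 1.

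As deposited, the second Stat5 gene, *stat5b* (gene 445474, chromosome 12), was the only Stat gene whose regions were all lower in the mutant library. This depends on scaling: *stat5b* was not the only such gene with the median of all regions set to 0 or after lowess centring. After lowess centring both *stat3* regions were below 0 too, at -0.06 and -0.67. The values of *stat5b* were as follows. The region at its start, centred 49 bp inside the gene (13650124 to 13650324), had 22.5 in the mutant library and 30.3 in the sibling library, a fold of 0.742 (0.394 to 1.37) with log2 ratio -0.42. It was called in the sibling library only. The stronger region lay 2175 bp upstream, at the start of *oplah*, a 5-oxoprolinase gene on the opposite strand. It had 70.1 in the mutant library and 72.9 in the sibling library, a fold of 0.961 (0.756 to 1.23). Both counting intervals include 1, and those of the folds at the *stat5a* and *stat5b* starts overlap.

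At *stat6* (gene 337413, chromosome 23) both regions were higher in the mutant library. They lie upstream of the start, 304 bp apart. The region at -682 bp (27123698 to 27124008) had 44.4 in the mutant library and 31.6 in the sibling library, a fold of 1.41 (0.926 to 2.09) with log2 ratio 0.48. The region at -1416 bp (27124312 to 27124862) had 65.4 in the mutant library and 40.2 in the sibling library, a fold of 1.63 (1.26 to 2.11) with log2 ratio 0.69. This is the highest ratio among the 10 Stat regions called in both libraries. It stayed at 0.49 after lowess centring and at 0.60 with peak signal. Of all regions that are neither promoters nor inside genes, 12.6% had a higher ratio. Of the regions in the same of 10 equal bins of signal, 6.94% did.

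Over whole loci, the estimated tags of all regions of a gene were summed. The fold was 1.56 (1.26 to 1.94) at *stat6*, 1.31 (1.03 to 1.65) at *stat4*, 1.21 (1.06 to 1.38) at *stat5a*, 1.18 (1.06 to 1.31) at *stat2*, 1.15 (1.05 to 1.27) at *stat3* and 0.926 (0.742 to 1.16) at *stat5b*. Neighbours in this order have overlapping intervals. Set against the ratio of 1.16 over all tags, only the *stat6* interval lay above it of the 8 genes, and among 22038 genes 14.5% did so. None of the 8 lay below, against 15% of genes. The *stat2*, *stat4* and *stat5b* sums include regions at the starts of *apof*, *wdr75* and *oplah*.

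The 6 Stat genes with a region within 1000 bp of the start, out of 8 (background 67.8% of all genes), kept the same order of promoter signal in both libraries. The most open was *stat3*, and *stat5a*, *stat6* and *stat5b* were, in this order, the least open. The counting intervals of *stat3* and *stat5a* did not overlap, while those of *stat5a* and *stat6* and of *stat6* and *stat5b* overlapped in both libraries. The *stat3* promoter was above the promoter median of 56.2 in the mutant library and 47.6 in the sibling library, and those of *stat6* and *stat5b* below it. The *stat5a* start was above the median in the mutant library and below it in the sibling library, with counting intervals that include the median in both (49.1 to 73.8 and 31.3 to 51.7). In the mutant library the *stat6* interval (33.7 to 56.6) includes it too. Over the 6 promoters the median log2 ratio was 0.31, with 5 above 0 (background 77.3%). It was 0.03 after lowess centring, where 3 of the 6 were above 0 and the median over all genes was 0.04.

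The regions were also split by call. The 10 regions called in both libraries had a larger average signal of 44.4 to 342 and log2 ratios of -0.06 to 0.69, and 9 of the 10 were higher in the mutant library. These 10 lie in bins 6 to 10 of 10 equal bins of signal, where 61.5% to 90.7% of all regions were higher in the mutant library. Their median log2 ratio was 0.25, against 0.17 over all 26399 regions called in both. The 8 called in a single library had 27.0 to 33.4 and ratios of -1.18 to 1.20, with 4 higher and 4 lower. In this weaker set each region was higher in the library in which it was called, a direction that the call itself largely sets. Over all regions the median log2 ratio was 0.63 for those called in the mutant library only and -0.70 for those called in the sibling library only. Of the 10, 4 had a ratio within 0.01 of the promoter median of 0.25: *stat3* at its start, *stat2* at 17829 bp, *stat4* at -2955 bp and *stat5a* at -4632 bp. This was noticed after the values were seen, and the share of all regions so close to it is not given here. Only the *stat3* region is a promoter of its own Stat gene. For the classes of the *stat2* region (inside genes) and the *stat5a* region (neither promoter nor inside a gene) the medians were 0.02 and 0.13. The counting interval of the fold lay above 1 in 8 of the 18 regions (background 24.5%) and below 1 in a single region (background 10.3%). Of these 8, 6 were among the 10 regions called in both libraries (background 27.8% of all regions called in both). Narrow intervals go with strong regions, and 90.7% of the regions in the highest of 10 equal bins of signal were higher in the mutant library. Against the ratio of 1.16 over all tags, only the intervals of *stat2* at -8629 bp and *stat6* at -1416 bp lay above. Those of *stat2* at 10601 bp, *stat3* at 20434 bp and *stat5a* at 37544 bp lay below. The shares of all regions past 1.16 are not given here.

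**Figure D3:**
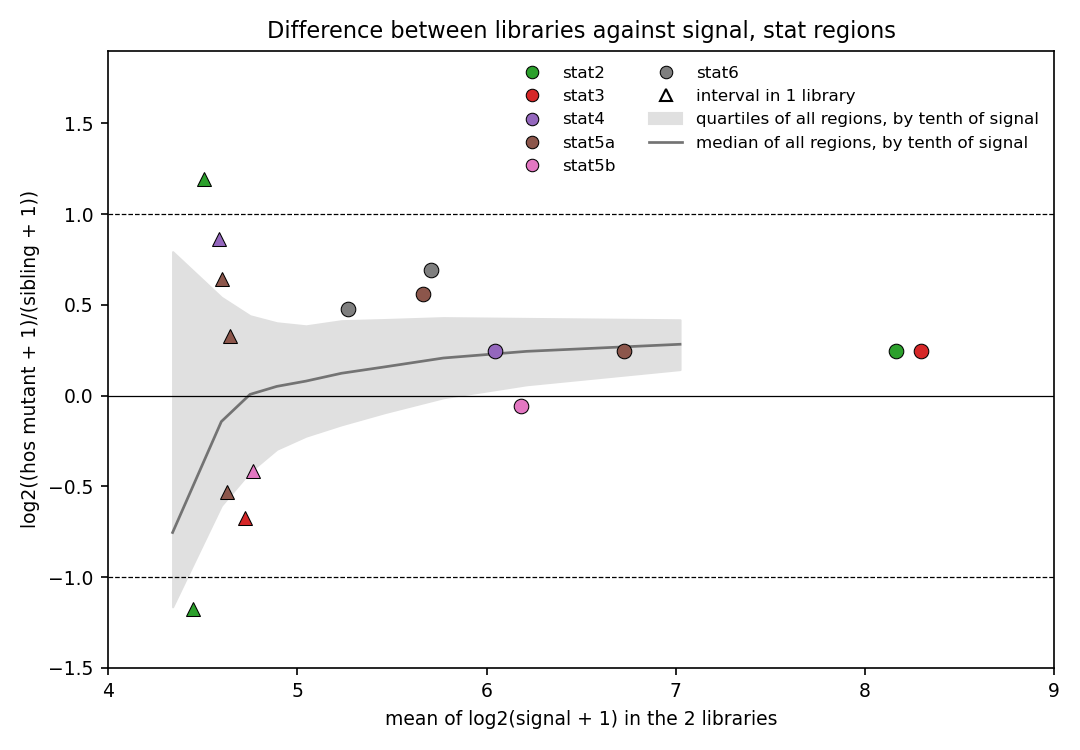
Log2 ratio of the *hos* mutant over the sibling library (vertical axis) against mean log2 signal for 16 Stat regions, with triangles for regions called in 1 library. The grey line and band are the median and quartiles of all regions in 10 equal bins of signal, and the dashed lines mark 2-fold, passed by a *stat2* region in each direction.

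In shape, the Stat regions called in both libraries ran from 310 to 609 bp, and the peak signal was 1.17 to 1.79 times the average in the mutant library and 1.15 to 1.86 times in the sibling library. The medians over all regions called in both were 424 bp, 1.41 times and 1.42 times. The most peaked in both libraries was the *stat3* start, followed by the *stat2* region inside the gene.

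In position, the *stat3* and *stat5a* genes lie on the same strand of chromosome 3, 19.3 kb apart. Chromosome 3 also holds *smarce1*, 18.0 Mb from *stat3*, and its regions had a median log2 ratio of 0.20. Of the Stat regions, 9 were also assigned to other genes, and the share over all regions is not given here.

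By the pair of average signals in the libraries, the promoters most like that of *stat3* were those of *rbpjb*, in a region shared with LOC103911431, and zgc:55733. The distance in the plane of log2(signal + 1) was 0.03 for each, over 2 libraries and 14591 genes. For *stat5a*, the highest of the Stat promoters by ratio, they were *gpm6aa*, *far1* and si:dkey-263f15.2, and for *stat5b*, the lowest, si:ch211-282j22.3, *acoxl* and *usp40*.

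The rest of the pathway was read from a list of 127 genes by role, of which 92 were in the files and 66 had a promoter region. Of the 66, 60 were above 0, where 77.3% of the promoters of all genes were, with a median log2 ratio of 0.32 against 0.25 over all genes. After lowess centring 49 of the 66 were above 0, where 55.6% of all promoters were, and the median was 0.07 against 0.04. The counts above 0 by role share the offset of all promoters. As deposited, none reached 2-fold in either direction, where 2.58% of all promoters did. The cytokine ligand genes had 4 of 6 above 0 and a median of 0.28. They ran from *clcf1* (-0.66) and *il15* (-0.08) to *epob* (0.62), an erythropoietin gene, and *csf3b* (0.95), a granulocyte colony-stimulating factor gene. Of the 6 ligand promoters, 2 were called in both libraries. Those of *clcf1* and *il15* were called in the sibling library only, and those of *epob* and *csf3b* in the mutant library only. After lowess centring *clcf1* was at 0.23. The receptor genes had 16 of 16 above 0 and a median of 0.36. They ran from *crfb4* (0.00) and *il7r* (0.05) to *lifra* (0.58), a leukemia inhibitory factor receptor gene, and *ghrb* (0.62), a growth hormone receptor gene.

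Of the 4 Janus kinase genes with a promoter region, *jak2b* had a log2 ratio of -0.12, *jak1* 0.04, *jak2a* 0.08 and *tyk2* 0.45. Their median of 0.06 was the lowest of the roles, and it was -0.22 after lowess centring, where the medians of the other roles lay between 0.05 and 0.25. The counting intervals of the folds at *jak1*, *jak2a* and *jak2b* include both 1 and the ratio of 1.16 over all tags. That of *tyk2* (1.18 to 1.59) lay above both. Among Socs, Pias and Ptpn inhibitor genes 18 of 19 were above 0 and the median was 0.29, from *pias2* (-0.01) and *ptpn11b* (0.03) to *socs3a* (0.59) and *ptpn11a* (0.70). The nuclear partners had 6 of 6 above 0 and a median of 0.40. Lowest were *ep300a* (0.32) and *ncoa1* (0.32), coactivator genes, and highest *ep300b* (0.53) and *irf9* (0.72), which encodes a DNA-binding partner of Stat2. Genes known as Stat targets in mammals had 13 of 15 above 0 and a median of 0.31. They ran from *birc5a* (-0.17), encoding survivin, and *vegfaa* (-0.10) to the cyclin gene *ccnd1* (0.62) and *hif1ab* (0.74).

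**Figure D4:**
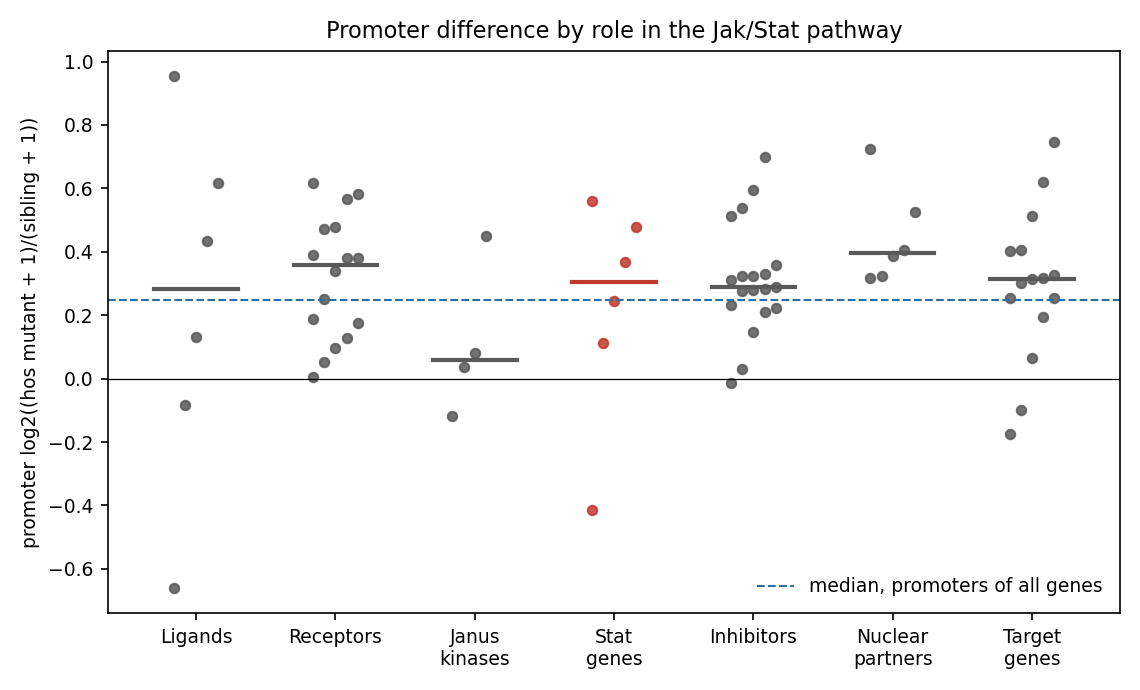
Promoter log2 ratio of the *hos* mutant over the sibling library (vertical axis) for genes of the Jak/Stat pathway by role, with the 6 Stat genes in red. Points are genes, bars are medians, and the dashed line is the median of 0.25 over the promoters of all genes. The Janus kinase median, over 4 genes, is lowest at 0.06.

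The labelled tissue is heart and the labelled cells are cardiomyocytes. Of 12 cardiomyocyte marker genes 10 were in the files and 8 had a promoter region, with none at *myh6* and *tbx5a*. Their summed average signal was 617 in the mutant library and 358 in the sibling library, with a median log2 ratio of 1.14 and 8 of 8 above 0. The 5 called in both libraries had log2 ratios from 0.34 (*myl7*) to 1.32 (*tnnt2a*). Those of *vmhcl* (1.39), *nppa* (1.46) and *nkx2.5* (1.28) were called in the mutant library only. Endocardial and endothelial markers had regions at 4 of 8 and sums of 249.7 in the mutant library and 181 in the sibling library. Epicardial markers had 3 of 5, with sums of 81.3 in the mutant library and 106 in the sibling library. Their log2 ratios were split: *wt1a* 0.48 (called in the mutant library only), *wt1b* -0.87 (sibling library only) and *tbx18* -0.62 (both). Skeletal muscle markers had 4 of 6, with sums of 68.5 in the mutant library and 114 in the sibling library. Markers of epidermis, gut and liver had 5 of 6, with sums of 249 in the mutant library and 271 in the sibling library. Neural markers had 5 of 5, with sums of 425 in the mutant library and 341 in the sibling library. Of 12 markers of blood and immune cells, in which Stat genes are widely used, 7 were in the files and 2 had a promoter region (*hbbe1.1* and *runx1*), with sums of 149 in the mutant library and 137 in the sibling library. No promoter region was found for *gata1a*, *mpx*, *coro1a*, *mpeg1.1* and *ptprc*. The median log2 ratio was 0.69 for endocardial and endothelial markers (0.52 after lowess centring), -0.62 for epicardial (-0.70), -0.21 for epidermis, gut and liver (-0.41) and 0.31 for blood and immune markers (0.22). That of neural markers turned with the scaling, from 0.10 as deposited to -0.16. That of skeletal muscle markers was -0.77 as deposited, with 0 of 4 above 0, and -0.13 after lowess centring. The low value rests on *mylpfa* and *tnnt3b*, which were called in the sibling library only. The counting intervals of their folds, 0.049 to 0.418 and 0.148 to 0.797, lay below 1. Lowess centring moved their log2 ratios from -2.35 to -0.37 and from -1.36 to 0.16.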

How the data were processed

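Groups were taken from the genotype labels. MACS2 2.1.0 and danRer11 are named in the submitters' processing notes. Neither the aligner nor the handling of duplicates, read shift and scaling is stated in the sources used here. The authors deposited, for regions merged over both libraries, an average and a peak signal (pileup) per library, a 0 or 1 mark of a called interval and a log2 ratio with a shrunken log2 fold change between the libraries. Those log2 columns were not used. A second deposited table gave the mean peak signal per gene. Regions were taken for a member by exact gene name, since *stat5a* also carries stat5b as an older symbol. Coordinates are printed as deposited.

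Tags were estimated as average signal times length over 224, which equals the deposited tag column of the larger library. Fold intervals are exact binomial, signal intervals exact Poisson, both at 95% and on estimated tags rounded to whole counts. If the deposited signals had been rescaled, these intervals would be too narrow or too wide. PCR duplicates are not independent molecules. A promoter is the region nearest a start within 1000 bp. Markers and pathway genes were counted by this promoter. The 2-fold limit is on signal + 1.

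Named genes were the members, of which some are not reported here by name, *smarce1*, the 2 lowest and 2 highest promoters per pathway role, the 3 genes most like *stat3* and the members at either end, and neighbours sharing regions. Members and lists were chosen with earlier results of these data known. Steps were tested on simulated data. Alternatives were centring on the median or by lowess (span 0.2), pseudocounts of 0.1 and 5, peak signal, promoter limits of 500 and 2000 bp, the strongest region, the gene table, a signal floor of 39.3, a 1.5-fold limit and, added after the data were seen, leaving out shared regions. No genome of this build was used here, so no sequence is printed and motifs were not searched. Scripts ran in Python 3.11.15 with pandas 2.3.3, numpy 2.4.6 and matplotlib 3.10.9, intervals came from scipy 1.17.1 and lowess from statsmodels 0.14.6.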

Additional observations from a re-analysis of the deposited data

How the results depend on the processing

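The log2 ratio of the *stat3* promoter region was 0.24 as deposited, 0.090 with the median of all regions set to 0 and -0.060 after lowess centring on mean signal, and it was 0.19 to 0.24 with the other pseudocounts or peak signal. The median over the Stat promoters ran from 0.03 to 0.31 and that over all Stat regions from -0.0027 to 0.33 under the alternatives run, and both were lowest after lowess centring. The count of regions past 2-fold, 2 as deposited, was 1 with a pseudocount of 5, 1 with peak signal, 0 at or above the signal floor, 0 without regions shared with another gene (a setting chosen after seeing the data), and 6 at a 1.5-fold limit (4 higher and 2 lower, where 15.4% and 12.7% of all regions passed). It was 2 after lowess centring, but there both were higher, at *stat2* and inside *stat4*, and both were called in the mutant library only. Of 90 single-region values under the alternatives, 85 stayed within the counting interval of the main value and 5 moved out of it, all 5 under a centring. No paired analysis was possible because each genotype has 1 library. Depth limits the weak regions most: those called in a single library rest on 18 to 51.8 estimated tags per library.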

Other observations

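Within 250 kb on either side of each of 6 Stat genes, the other regions had median log2 ratios of -0.06 around *stat3* (12 regions), -0.06 around *stat5a* (10), -0.03 around *stat4* (21), 0.08 around *stat6* (26), 0.20 around *stat2* (35) and 0.31 around *stat5b* (9). At *stat6*, both regions of the gene were above the upper quartile of 0.467 of its surroundings, the region at -682 bp only just, at 0.478. Both regions of *stat4*, at 0.247 and 0.863, were likewise above the upper quartile of 0.242 of its surroundings. At *stat5b*, both were below the lower quartile of 0.03. These are values with no test, and the windows of *stat3* and *stat5a* overlap.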
